A study of Mus musculus with 13 samples.

Results

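A set of 8 Wnt pathway genes was followed through cultured mouse oligodendrocyte-lineage cells with and without Eed. Eed is part of PRC2, the Polycomb enzyme complex that methylates lysine 27 of histone H3 and keeps developmental genes silent. The 8 genes were taken by name from the count table, and all are among its 13549 genes. Wnt2b and Wnt7b encode secreted ligands, and Sfrp2 encodes a secreted antagonist that binds Wnt proteins. Axin2, Nkd1 and Rnf43 are feedback inhibitors that the pathway switches on itself. Sp8 and Ccnd1 encode a transcription factor and cyclin D1, and both are described as targets of the pathway.

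The cells came from brains of C57BL/6 mice, either controls or conditional knockouts (cKO) of Eed. The genotype entry of the labels is the same for controls and knockouts, so the groups rest on the sample titles. The driver of the deletion and the deleted exons are not given in the sources used here. The medium of the oligodendrocyte precursor cells (OPCs) held the growth factors PDGF and NT-3. Immature oligodendrocytes (iOLs) are the same cells after 2 days of differentiation, with thyroid hormone (T3) added and PDGF removed. The OPC stage has 2 control and 3 cKO libraries, and the iOL stage has 2 of each. Brains of postnatal day 7 gave 3 libraries, the first control OPC library and the first 2 cKO OPC libraries. Day 6 brains gave the other 6.

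Canonical Wnt signalling starts when a secreted ligand binds a Frizzled receptor and an Lrp co-receptor. Beta-catenin is then no longer destroyed, enters the nucleus and switches on genes together with Tcf/Lef factors. In the oligodendrocyte lineage this signalling is known to hold back differentiation when it is prolonged, and Axin2 is widely read as its most general transcriptional readout. Cyclin D1 drives the entry of cells into division and is also raised by growth factors, so it is not a readout of Wnt alone.

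Total counts ran from 17417529 to 19680398 per library. The control OPC libraries differed more from each other (Spearman rho of counts 0.969) than libraries within any other group did (0.981 to 0.997). Summed oligodendrocyte markers (10 of 10 measured) were at 2346 and 6759 CPM (counts scaled to library depth) in the control OPC libraries and summed astrocyte markers (9 of 9) at 3600 and 10106. Of 8 OPC markers all were measured, at 11919 to 15893 summed CPM in OPCs and 4484 to 5269 in iOLs. Eed itself stood at 11.8 to 14.6 CPM in cKO libraries and at 16.8 to 21.7 CPM in controls, without overlap, and passed the test at neither stage (edgeR adjusted p = 0.0847 and 0.0973). Its counts are summed over the whole gene. The level of the deleted part was not measured.

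The promoters of 3 of the 8 genes are shown because 2 of these genes were near silent in control cells and raised in both kinds of Eed cKO culture, while the third passed no test. In mammals PRC2 is recruited mostly to stretches rich in CpG dinucleotides, which are in capitals here. The RefSeq table (GRCm38.p6, the assembly behind mm10) gives windows of 300 bases, 250 before and 50 after a transcription start, and holds 9 windows for 6 of the 8 genes. Each sequence is given 5′ to 3′ on the gene's strand, for Wnt2b at chr3:104961660-104961959 (minus), for the second of 3 starts of Sp8 at chr12:118846983-118847282 (plus) and for Axin2 at chr11:108920099-108920398 (plus).
Wnt2b: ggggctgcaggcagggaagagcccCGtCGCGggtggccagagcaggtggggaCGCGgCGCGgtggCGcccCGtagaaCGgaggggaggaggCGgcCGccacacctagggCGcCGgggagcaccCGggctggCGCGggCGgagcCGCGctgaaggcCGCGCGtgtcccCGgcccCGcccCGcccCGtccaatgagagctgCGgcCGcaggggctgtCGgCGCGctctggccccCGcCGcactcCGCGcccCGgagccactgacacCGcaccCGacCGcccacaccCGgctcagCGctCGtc
Sp8: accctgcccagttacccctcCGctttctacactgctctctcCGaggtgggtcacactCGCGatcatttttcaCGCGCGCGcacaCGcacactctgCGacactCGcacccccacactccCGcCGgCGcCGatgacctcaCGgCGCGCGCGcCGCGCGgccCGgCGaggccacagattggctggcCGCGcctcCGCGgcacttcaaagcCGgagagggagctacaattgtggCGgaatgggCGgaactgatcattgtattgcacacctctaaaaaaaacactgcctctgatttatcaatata
Axin2: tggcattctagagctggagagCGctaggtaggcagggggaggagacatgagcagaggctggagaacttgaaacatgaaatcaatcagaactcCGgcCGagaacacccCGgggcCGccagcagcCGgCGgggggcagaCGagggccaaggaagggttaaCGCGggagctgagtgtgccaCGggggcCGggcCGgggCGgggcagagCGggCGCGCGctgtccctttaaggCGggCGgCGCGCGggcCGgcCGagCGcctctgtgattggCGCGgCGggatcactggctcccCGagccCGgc

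The Wnt2b window held 43 CpGs, more than 97.4% of all 32851 windows of this length, and the Sp8 window held 32, more than 90.5%. Axin2 held 31, more than 89.4% of the windows, and was called in no comparison. The remaining windows held 22 CpGs for Sfrp2, 6 for Nkd1, 10 and 3 for the 2 starts of Rnf43 and 2 and 10 for the other starts of Sp8, against a median of 7 over all windows. The Tcf/Lef core, searched as CTTTGAT or CTTTGAA on both strands, matched once in the second Sp8 window and in no other window of these genes. It is in 8.65% of all windows.

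**Figure D1:**
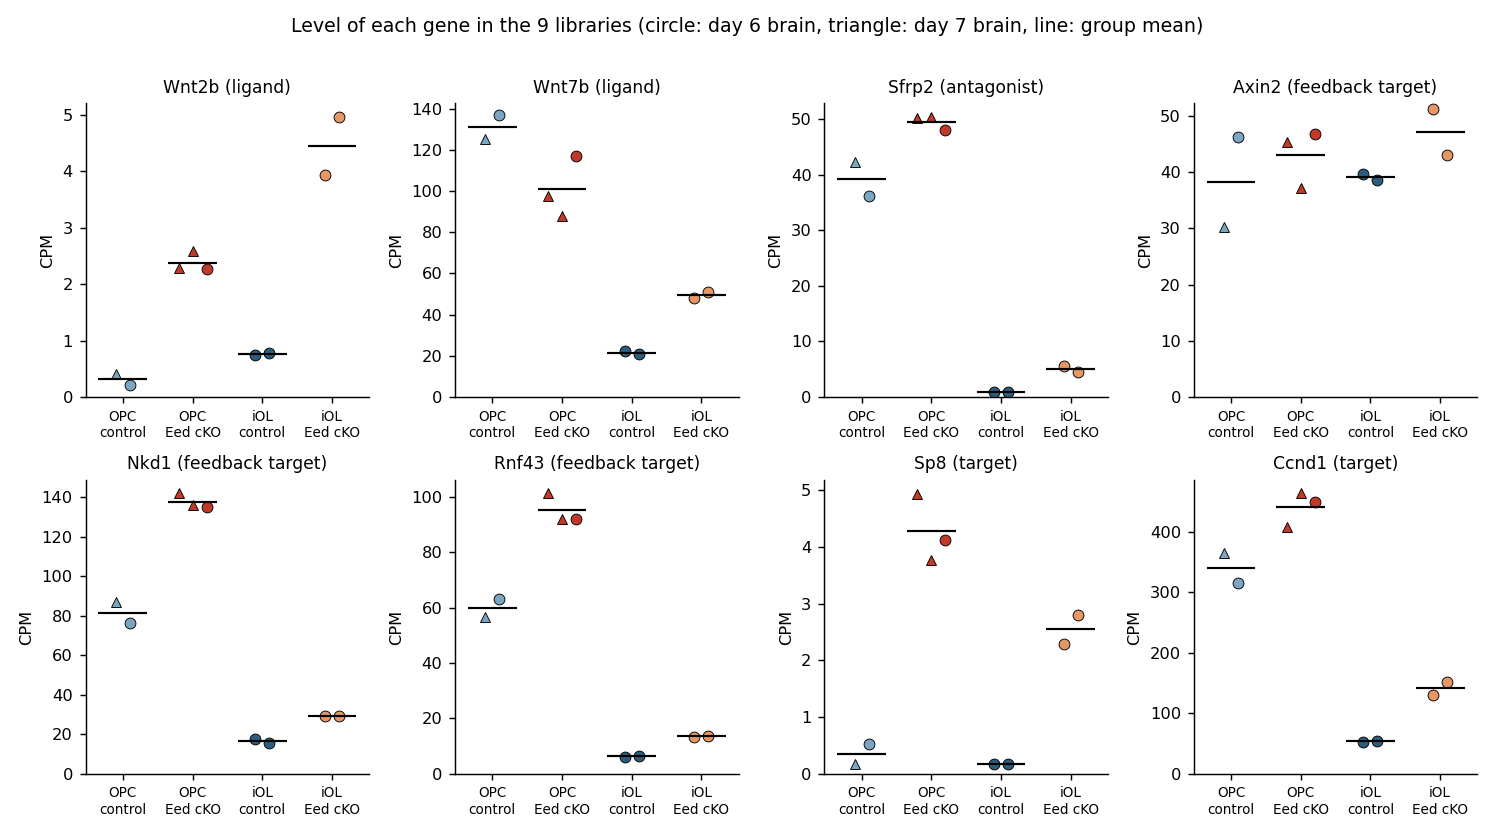
Level of each of the 8 genes in every library, in CPM on an axis from 0 (a separate scale for each gene); points are libraries, shaped by the postnatal day of the brain, and lines are group means. Wnt2b and Sp8 are at or below 0.777 CPM in every control library, Sfrp2 nearly disappears from control iOLs, and the Axin2 groups overlap except for control and cKO iOLs.

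Wnt2b (chromosome 3, 104944805 to 104961709) was close to absent from control cells and was higher in every Eed cKO library. Control OPCs held 0.410 and 0.211 CPM, 7 and 4 counts, and cKO OPCs 2.28, 2.58 and 2.27 CPM. In iOLs it was 0.738 and 0.777 CPM in controls and 3.94 and 4.97 CPM in cKO cultures. The 4 groups did not overlap, and their order from low to high was control OPC, control iOL, cKO OPC and cKO iOL.

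The difference of Wnt2b was a log2 fold change of 2.93 ± 0.36 (SE) in OPCs and 2.54 ± 0.32 in iOLs (edgeR adjusted p = 0.0025 and 0.0018). With so few counts the ratio of the pooled counts is the safer guide, 7.79 in OPCs (exact 95% interval of counting error alone 4.22 to 16.0) and 5.88 in iOLs (3.90 to 9.18). Both calls held under every alternative tried. The difference between the 2 stages was −0.38 ± 0.49 and did not pass (adjusted p = 0.69).

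Wnt7b (chromosome 15, 85535437 to 85581821), a ligand known for its part in brain vessel growth and neural development, differed from Wnt2b. It was well expressed in control OPCs, at 125 and 137 CPM, and somewhat less in cKO OPCs, at 97.6, 88.1 and 117 CPM. In iOLs the order turned, with 22.3 and 20.6 CPM in controls and 48.0 and 51.1 CPM in cKO cultures. At each stage the cKO libraries lay wholly on one side of the controls, below them in OPCs and above them in iOLs.

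The log2 fold change of Wnt7b was −0.38 ± 0.13 in OPCs, which did not pass (edgeR adjusted p = 0.13), and 1.21 ± 0.15 in iOLs, which did (adjusted p = 0.0017). The difference of these effects was 1.59 ± 0.20 (adjusted p = 0.011). Leaving out OPC Eed cKO replicate 3, one of the day 6 libraries, let the OPC decrease pass (log2 −0.50, adjusted p = 0.0228). The difference between stages missed the threshold without any single iOL library, at adjusted p from 0.0527 (without iOL Eed cKO replicate 2) to 0.0716 (without iOL control replicate 2), with the log2 value between 1.53 and 1.64.

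Sfrp2 (chromosome 3, 83765750 to 83774314), the antagonist, was slightly higher in cKO OPCs and far higher in cKO iOLs than in controls. It was at 42.2 and 36.1 CPM in control OPCs and at 50.3, 50.4 and 48.0 CPM in cKO OPCs. Control iOLs held 0.795 and 0.833 CPM, 14 and 15 counts, and cKO iOLs 5.64 and 4.49 CPM. No 2 groups overlapped.

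In OPCs the Sfrp2 log2 fold change of 0.34 ± 0.13 did not pass (edgeR adjusted p = 0.16). In iOLs it was 2.63 ± 0.21 (adjusted p = 0.00041), a ratio of pooled counts of 6.22 (counting interval 4.20 to 9.54). The effect was larger in iOLs than in OPCs by 2.29 ± 0.25 (adjusted p = 0.011). This difference missed the threshold without iOL control replicate 1 (log2 2.26, adjusted p = 0.0626) or replicate 2 (2.32, 0.0710).

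Axin2 (chromosome 11, 108917828 to 108950783), the scaffold of the complex that destroys beta-catenin, was the only one of the 8 genes that passed no test. It stood at 30.2 and 46.3 CPM in control OPCs, 45.4, 37.1 and 46.9 CPM in cKO OPCs, 39.6 and 38.6 CPM in control iOLs and 51.2 and 43.0 CPM in cKO iOLs. The groups overlapped except in iOLs, where both cKO libraries lay above both controls. Over all genes 33.6% were higher in cKO iOLs in this way.

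The log2 fold change of Axin2 was 0.17 ± 0.19 in OPCs (95% interval −0.25 to 0.60, edgeR adjusted p = 0.58) and 0.27 ± 0.21 in iOLs (−0.20 to 0.73, adjusted p = 0.53). The 2 control OPC libraries stood at opposite ends of the OPC range, the day 7 library low. Within day 7 the cKO difference was 0.44 (2 libraries against 1), and within day 6 it was 0.02 (1 against 1). Without OPC control replicate 1 the sign turned, to −0.10.

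Nkd1 (chromosome 8, 88521342 to 88594887) encodes an inhibitor that binds Dishevelled, and it rose at both stages. Control OPCs had 86.8 and 76.3 CPM and cKO OPCs 142, 136 and 135 CPM. Control iOLs had 17.6 and 15.8 CPM and cKO iOLs 29.4 and 29.1 CPM. All cKO libraries lay above the controls of their stage.

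The increase of Nkd1 was 1.69-fold in OPCs (log2 0.76 ± 0.11, edgeR adjusted p = 0.0055) and 1.75-fold in iOLs (0.81 ± 0.12, adjusted p = 0.0038). The difference between stages was 0.05 ± 0.16 (95% interval −0.30 to 0.41). The iOL call ended by a narrow margin without iOL control replicate 2 (log2 0.73, adjusted p = 0.0505).

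Rnf43 (chromosome 11, 87663087 to 87735539) encodes a ubiquitin ligase that removes Frizzled receptors from the cell surface. Levels were 56.5 and 63.3 CPM in control OPCs and 101, 92.0 and 92.2 CPM in cKO OPCs. In iOLs it was 5.96 and 6.50 CPM in controls and 13.3 and 13.6 CPM in cKO cultures. Again every cKO library was above every control of its stage.

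Rnf43 rose 1.59-fold in OPCs (log2 0.67 ± 0.11, edgeR adjusted p = 0.014) and 2.16-fold in iOLs (1.11 ± 0.14, adjusted p = 0.0015). The OPC call was lost when the first control OPC library (adjusted p = 0.0548) or the first or second cKO OPC library (0.0703 and 0.0540) was left out, and with only the OPC libraries in the fit (0.0775). The difference between stages, 0.44 ± 0.17, did not pass (adjusted p = 0.22).

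Sp8 (chromosome 12, 118846288 to 118852578), a zinc finger factor of limb, forebrain and interneuron development, was nearly silent in control cells. It had 3 and 10 counts in control OPCs and 3 in each control iOL library, 0.176, 0.526, 0.170 and 0.167 CPM. In cKO OPCs it reached 4.94, 3.77 and 4.13 CPM and in cKO iOLs 2.29 and 2.80 CPM. No cKO library overlapped a control.

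The Sp8 log2 fold change was 3.55 ± 0.40 in OPCs and 3.86 ± 0.49 in iOLs (edgeR adjusted p = 0.0016 and 0.0018), and both held under every alternative tried. The ratios of pooled counts were 11.9 (counting interval 6.81 to 22.6) and 15.1 (6.70 to 42.2). The table holds only genes with at least 10 counts in 4 or more libraries. Sp8 reached 10 in 1 control library and Wnt2b in 2, so both could be in the table only through the cKO libraries, where they are high. Lef1, Notum, Rspo1, Rspo3, Cdkn2a, Cdkn2b, Foxc1 and Flt1, reported below, also reached 10 in fewer than 4 control libraries and needed a cKO library. Counts of calls that include Sp8, Wnt2b or any of these genes are therefore a description.

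Ccnd1 (chromosome 7, 144929931 to 144939831) was higher in cKO cells mainly after differentiation. Control OPCs stood at 365 and 315 CPM and cKO OPCs at 408, 465 and 450 CPM. In iOLs it was at 52.8 and 54.1 CPM in controls and at 131 and 151 CPM in cKO cultures. The groups did not overlap at either stage.

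The Ccnd1 log2 fold change of 0.37 ± 0.12 in OPCs did not pass with edgeR (adjusted p = 0.13) and passed with DESeq2 (0.39, adjusted p = 0.0420). In iOLs it was 1.40 ± 0.14, a 2.64-fold increase (edgeR adjusted p = 0.00071). The difference between stages was 1.03 ± 0.18 (adjusted p = 0.033). It missed the threshold without any single iOL library and without OPC Eed cKO replicate 1 or 2, at adjusted p from 0.0980 (without OPC Eed cKO replicate 2) to 0.173 (without iOL control replicate 1), with the log2 value between 0.92 and 1.13.

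**Figure D2:**
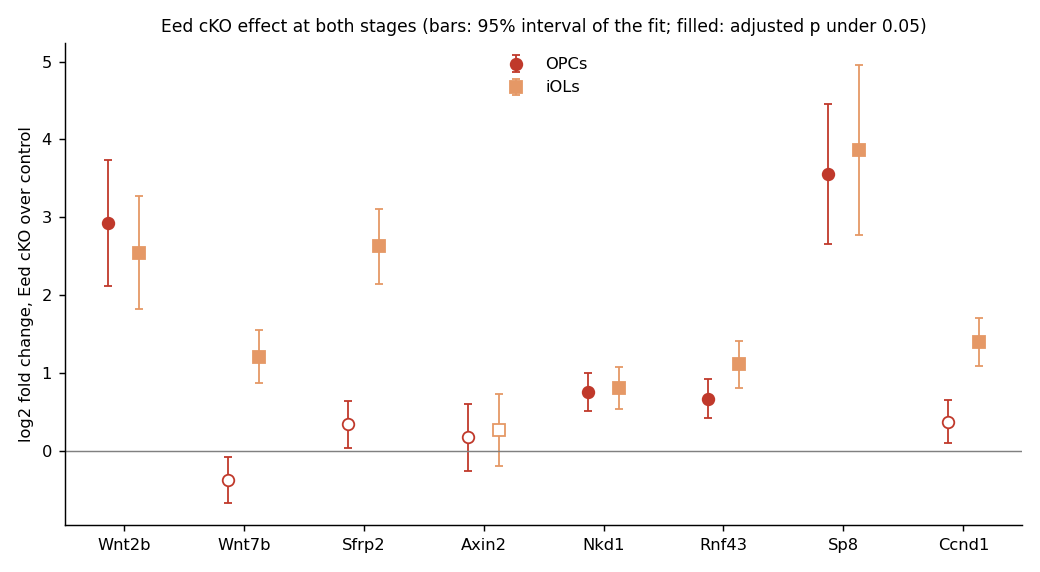
Log2 fold change of Eed cKO over control for the 8 genes in OPCs (circles) and iOLs (squares), with the 95% interval of the edgeR fit; filled symbols passed an adjusted p under 0.05 over all genes. The intervals are not adjusted, so those of Wnt7b, Sfrp2 and Ccnd1 in OPCs leave out 0 without a call; these 3 genes are also the ones whose effect differed between the stages.

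Counted together, 4 of the 8 genes rose in cKO OPCs (Wnt2b, Sp8, Nkd1 and Rnf43), against 2.94% of all genes called higher and 3.25% called either way. None fell by edgeR or by DESeq2, and Wnt7b alone was lower at an unadjusted p under 0.05. In cKO iOLs 7 of the 8 rose, all but Axin2, against 7.08% of all genes called higher and 10.6% either way, and none fell by either tool, with 0 lower at an unadjusted p under 0.05. The difference between stages was called for 3 of the 8 (Wnt7b, Sfrp2 and Ccnd1), all larger in iOLs, against 0.945% of all genes in that direction and 1.83% in either. Without overlap between the groups, 6 of the 8 were higher and 1 lower in cKO OPCs (16.9% and 17.4% of all genes) and 8 higher in cKO iOLs (33.6%, and 34.3% lower). The genes were chosen with earlier results of these data known. Wnt2b and Sp8 could moreover be in the table only through the cKO libraries, where they are high. For both reasons these counts are a description. The median log2 fold change of the 8 genes was 0.52 in OPCs and 1.30 in iOLs, beside −0.02 and −0.00 over all genes.

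Within postnatal day the OPC differences kept their direction for all 8 genes. On day 7 the log2 difference was 2.29 for Wnt2b, 3.96 for Sp8, 0.68 for Nkd1 and 0.77 for Rnf43. On day 6 it was 2.90, 2.74, 0.82 and 0.54 for the same genes. Wnt7b was lower on both days (−0.43 and −0.23), and Sfrp2 (0.25 and 0.41) and Ccnd1 (0.25 and 0.51) were higher on both. These values rest on 3 libraries for day 7 and 2 for day 6.

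Over differentiation 5 of the 8 genes fell in both genotypes. In control cultures Sfrp2, Rnf43, Ccnd1, Wnt7b and Nkd1 fell, Wnt2b rose, and Axin2 and Sp8 did not pass. That compares with 25.3% of all genes called lower, 21.0% called higher and 46.3% either way. In cKO cultures the same 5 genes fell and Wnt2b rose, against 21.8% and 18.5% of all genes, 40.3% together. In each genotype 6 of the 8 lay lower without overlap and 1 higher, against 37.6% and 34.3% of all genes in controls and 34.7% and 34.3% in cKO cultures. The decrease of Sp8 over cKO differentiation (log2 −0.75 ± 0.31, edgeR adjusted p = 0.080) passed in a fit of only the cKO libraries (0.0337) and without OPC control replicate 1 (0.0259) or 2 (0.0266). All iOL libraries are of day 6 and the OPC libraries of both days, and the iOL medium had T3 added and PDGF removed. The parts of stage, medium and day in these changes cannot be told apart.

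Sfrp2 dropped most steeply. Control iOLs held 2.08% of the control OPC level (log2 −5.58 ± 0.20, edgeR adjusted p = 1.4e-06) and cKO iOLs 10.2% of the cKO OPC level (−3.29 ± 0.16, adjusted p = 2.7e-06). Rnf43 in iOLs was at 10.4% of its OPC level in controls and 14.2% in cKO cultures, and Nkd1 at 20.5% and 21.2%. The falls of these feedback inhibitors did not differ between the genotypes by the adjusted test, with unadjusted 95% intervals of the log2 difference of 0.05 to 0.83 for Rnf43 and −0.30 to 0.41 for Nkd1.

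Wnt7b and Ccnd1 kept more of their level in cKO cultures. Wnt7b in iOLs was at 16.4% of its OPC level in controls and at 49.2% in cKO cultures, with log2 changes of −2.61 ± 0.15 and −1.02 ± 0.14 (edgeR adjusted p = 5.0e-06 and 0.00037). Ccnd1 was at 15.7% and 32.0% (log2 −2.67 ± 0.14 and −1.64 ± 0.13, adjusted p = 3.9e-06 and 2.0e-05). Even so, every cKO iOL library stayed below every control OPC library for both genes, at 37.9% and 41.5% of the control OPC mean.

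Wnt2b went the other way. It was 2.44 times its OPC level in control iOLs (log2 1.29 ± 0.43, edgeR adjusted p = 0.033, counting interval of the ratio 1.19 to 5.55) and 1.87 times in cKO iOLs (0.90 ± 0.25, adjusted p = 0.019). The control call rests on 11 and 27 counts. It ended without OPC control replicate 2 (log2 0.88, adjusted p = 0.183), without either iOL control library (0.0942 and 0.113), narrowly without OPC Eed cKO replicate 1 or 2 (0.0501 and 0.0504), with only the control libraries in the fit (0.132), and with DESeq2 (0.0708). The cKO call ended without OPC Eed cKO replicate 1 (0.0646) or either cKO iOL library (0.0511 and 0.170).

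**Figure D3:**
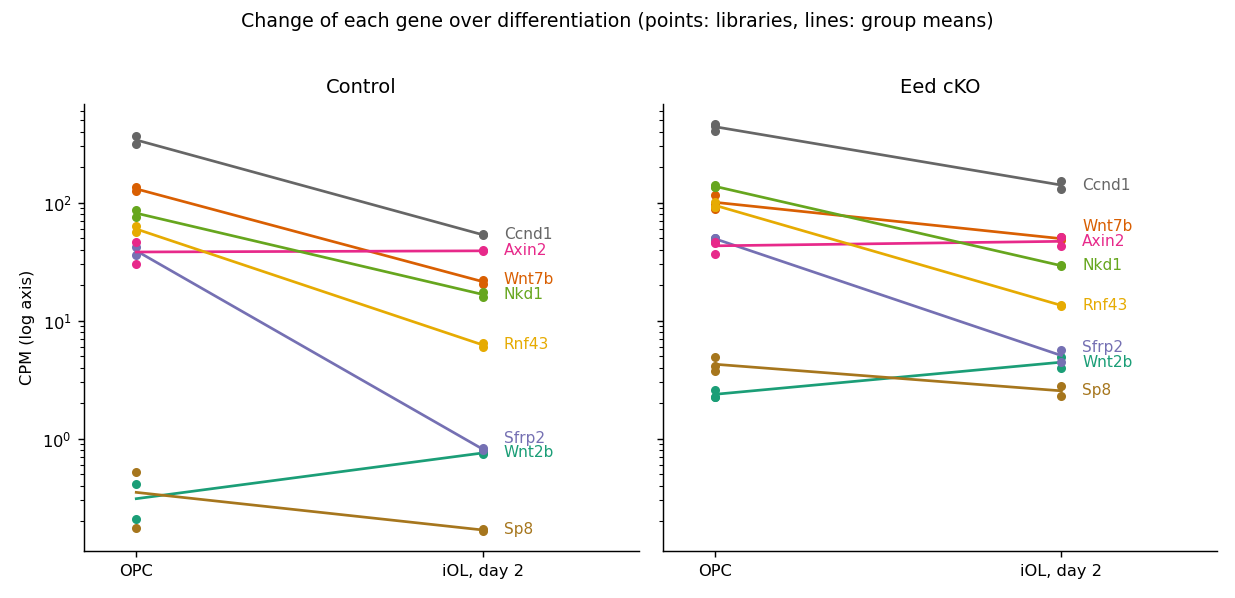
Mean CPM (lines) and each library (points) of the 8 genes in OPCs and in iOLs on day 2, on a log axis, for control and Eed cKO cultures; CPM is not divided by gene length, so heights of different genes are not to be compared. The lines of Sfrp2, Wnt7b and Ccnd1 fall less steeply in the cKO panel, those of Nkd1 and Rnf43 run nearly parallel in both, Axin2 stays level and Wnt2b climbs.

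Markers of several cell types moved with the Eed comparisons. Over all genes 2.94% were called higher and 0.303% lower in cKO OPCs. In OPCs the oligodendrocyte markers summed to 1130 to 2995 CPM in cKO libraries, with 1 of 10 lower (Cnp, 5 lower at an unadjusted p under 0.05), and the astrocyte markers to 3171 to 8053 CPM, with 1 of 9 lower (Agt). Within each genotype every astrocyte marker was lower in the day 7 OPC libraries than in those of day 6. Slc1a3, for example, was at 876 CPM (control) and 962 and 1039 CPM (cKO) on day 7. Its day 6 levels were 2980 CPM in the control and 2696 CPM in the cKO library. Of 10 neuron markers 1 was higher in cKO OPCs, Gad2 of inhibitory neurons, at 25.9, 24.4 and 19.4 CPM against 4.10 and 3.84 CPM. Neural crest and Schwann markers summed to 217 to 305 CPM in cKO OPCs and 149 to 308 in controls, with Erbb3 higher.

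In iOLs the oligodendrocyte markers were lower. Over all genes 7.08% were called higher and 3.51% lower in cKO iOLs. The summed level of the 10 oligodendrocyte markers was 6276 and 6297 CPM in control iOLs and 1611 to 2348 CPM in cKO iOLs, where 6 of the 10 fell, among them Mbp (log2 −2.31 ± 0.57, edgeR adjusted p = 0.031) and Myrf (−1.76 ± 0.30, 0.0066). Astrocyte markers summed to 9609 to 11532 CPM in cKO iOLs and 6464 to 6645 in controls, and none of the 9 was called by edgeR, with 0 at an unadjusted p under 0.05. Gfap held most of that sum, at 6115 and 7938 CPM in cKO iOLs and 3778 and 3655 CPM in controls. Neuron markers summed to 340 to 377 CPM in cKO iOLs and 223 to 235 in controls, with 2 of 10 higher (Gad2 and Tubb3). Neural crest and Schwann markers (6 of 7 measured, Foxd3 not in the table) summed to 164 to 236 CPM and 90.8 to 130 in controls, with 1 higher. That gene was Erbb3, at 58.5 and 91.9 CPM in cKO iOLs and 14.1 and 14.0 CPM in controls. The 8 OPC markers were not higher in sum, at 4484 to 4963 CPM against 4865 to 5269. Fewer cells of a type and less RNA per cell cannot be told apart in bulk libraries, and the part of these shifts in the levels of the 8 genes was not tested.

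Genes of other tissues that are known to make Wnt2b were checked as well. Calls among them stand beside 2.94% of all genes higher and 0.303% lower in cKO OPCs. In cKO iOLs these shares were 7.08% and 3.51%. Of 10 markers of the dorsal midline and choroid plexus 4 were in the table (Otx2, Ttr, Rspo1 and Rspo3), with summed levels of 13.4 to 16.5 CPM in control OPCs, 20.1 to 24.6 in cKO OPCs, 4.83 to 5.11 in control iOLs and 11.7 to 11.8 in cKO iOLs. Of these 4, 1 was called higher in cKO OPCs and 3 in cKO iOLs, with 0 lower (median log2 fold changes 0.82 and 1.38). Rspo1 and Rspo3 needed cKO libraries to be in the table, so these counts are a description. Otx2 was at 4.28 and 6.95 CPM in control OPCs and at 16.6, 12.8 and 10.6 CPM in cKO OPCs. In iOLs Otx2 was at 3.12 and 3.94 CPM in controls and at 7.77 and 8.04 CPM in cKO cultures. Lmx1a, Wnt8b and Wnt3a, which mark the dorsal midline, were not among the table's genes. Of 8 pericyte, fibroblast and meningeal markers 7 were measured, at 47.4 to 106 CPM in cKO OPCs against 82.7 to 85.0 in controls and at 43.0 to 52.8 CPM in cKO iOLs against 27.7 to 95.9. Of these 7, 1 was called higher in cKO OPCs and 2 in cKO iOLs, with 0 lower (median log2 fold changes −0.11 and 0.79). Foxc1, a meningeal gene, rose from 0.469 and 0.316 CPM to 4.34, 3.61 and 3.61 CPM in OPCs. In iOLs Foxc1 rose from 0.625 and 0.722 to 3.51 and 3.97 CPM. The more abundant Col1a2 was lower on average without a call, at 26.3 CPM in cKO OPCs against 37.0 and at 12.8 CPM in cKO iOLs against 26.1. Rgs5, a pericyte gene, rose in iOLs, from 1.36 and 0.944 to 5.59 and 5.23 CPM. Of 7 endothelial markers 3 were measured (Pecam1, Cldn5, Cdh5 and Tek were not in the table), and Flt1 and Kdr rose at both stages while Vwf fell in iOLs. The part of these genes in the Wnt2b level was not tested.

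Beyond the 8 genes, 112 further Wnt pathway genes were listed by role, and 89 of them were in the table. In cKO OPCs 2 of the 89 rose and none fell, against 2.94% and 0.303% of all genes. Unadjusted edgeR p-values under 0.05 numbered 21 higher and 2 lower, and DESeq2 called 8 higher and 0 lower. Lef1, the Tcf/Lef factor gene, rose from 2.34 and 2.53 CPM to 17.1, 19.4 and 17.8 CPM (log2 2.89 ± 0.21, edgeR adjusted p = 0.00014). Kremen1, a receptor for the antagonist Dkk1, rose from 37.1 and 66.5 CPM to 128, 134 and 131 CPM (1.33 ± 0.21, adjusted p = 0.010). With postnatal day as a term 15 rose and 2 fell, and without OPC control replicate 2 there were 26 and 2. Without OPC Eed cKO replicate 3 there were 14 and 1.

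In cKO iOLs 17 of the 89 rose, 3 fell and 69 did not pass, against 7.08% and 3.51% of all genes. Among those that rose, Lef1, Notum, Rspo1 and Rspo3 needed cKO libraries to be in the table. The count is therefore a description. Of 9 measured ligands 5 rose, which were Wnt2b, Wnt7b, Wnt4 (log2 1.72 ± 0.39), Wnt9a (1.30 ± 0.31) and Wnt5b (1.24 ± 0.27), and 4 did not pass. Since Wnt2b needed cKO libraries to be in the table, this count is a description too. Wls, which carries Wnt proteins to the cell surface, went from 30.5 and 38.7 CPM to 70.1 and 71.4 CPM (1.03 ± 0.16, edgeR adjusted p = 0.0049). Of 18 receptors and co-receptors 3 rose. These were Adgra2 (1.88 ± 0.20), the co-receptor for Wnt7 ligands on brain vessels, Ror2 (1.33 ± 0.17), a receptor of non-canonical Wnt signalling, and Fzd9 (1.32 ± 0.22).

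Of 17 antagonists 6 rose in cKO iOLs, Sfrp2 included, and 11 did not pass, against 7.08% of all genes called higher (median log2 fold change of the 17, 0.99). Notum, an enzyme that inactivates Wnt proteins, was at log2 2.89 ± 0.56, Igfbp4 at 2.43 ± 0.26, Sfrp5 at 2.30 ± 0.44, Draxin at 1.36 ± 0.30 and Sfrp1 at 0.84 ± 0.16. Notum needed cKO libraries to be in the table, so the count of 6 is a description. Igfbp4, for example, stood at 4.26 and 6.83 CPM in control iOLs and at 28.1 and 31.6 CPM in cKO iOLs. Of 5 measured R-spondins and Lgr receptors, which amplify Wnt signals by holding Rnf43 and its relative off Frizzled, Rspo1 (1.95 ± 0.51), Rspo3 (1.59 ± 0.40) and Lgr5 (0.96 ± 0.23) rose, 3 of 5 against the same 7.08%. Rspo1 and Rspo3 needed cKO libraries to be in the table, so this count too is a description.

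Of 28 signalling components inside the cell 2 were called, against 10.6% of all genes, with a median log2 fold change of −0.03. Bcl9, a partner of beta-catenin, rose (log2 0.77 ± 0.17) and Cxxc4, an inhibitor of Dishevelled, fell by 0.97 ± 0.18. Among the Tcf/Lef factor genes Lef1 rose (3.30 ± 0.27) and Tcf7l2, which acts in oligodendrocyte differentiation, fell by 1.09 ± 0.22. Prickle1 fell by 1.22 ± 0.21. Of 19 feedback and target genes, 7 rose, 1 fell and 11 did not pass, against 7.08% of all genes called higher and 3.51% lower. Their median log2 fold change was 0.58 beside −0.00 over all genes. Those that rose were Nkd1, Rnf43, Sp8 and Ccnd1, of the 8 genes chosen with results known, and Lef1, Lgr5 and Notum of the others. Sp8, Lef1 and Notum needed cKO libraries to be in the table, so the count of 7 is a description.

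The calls among these further iOL genes leaned on single libraries. Without iOL control replicate 1 only 4 of the 89 were called, and 7 without iOL control replicate 2, 8 without iOL Eed cKO replicate 1 and 8 without iOL Eed cKO replicate 2. Adgra2, Igfbp4, Ror2 and Lef1 passed in every alternative, with edgeR adjusted p of at most 0.0184, 0.0151, 0.0280 and 0.0099. Without OPC control replicate 1 there were 31 and with postnatal day as a term 34.

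**Figure D4:**
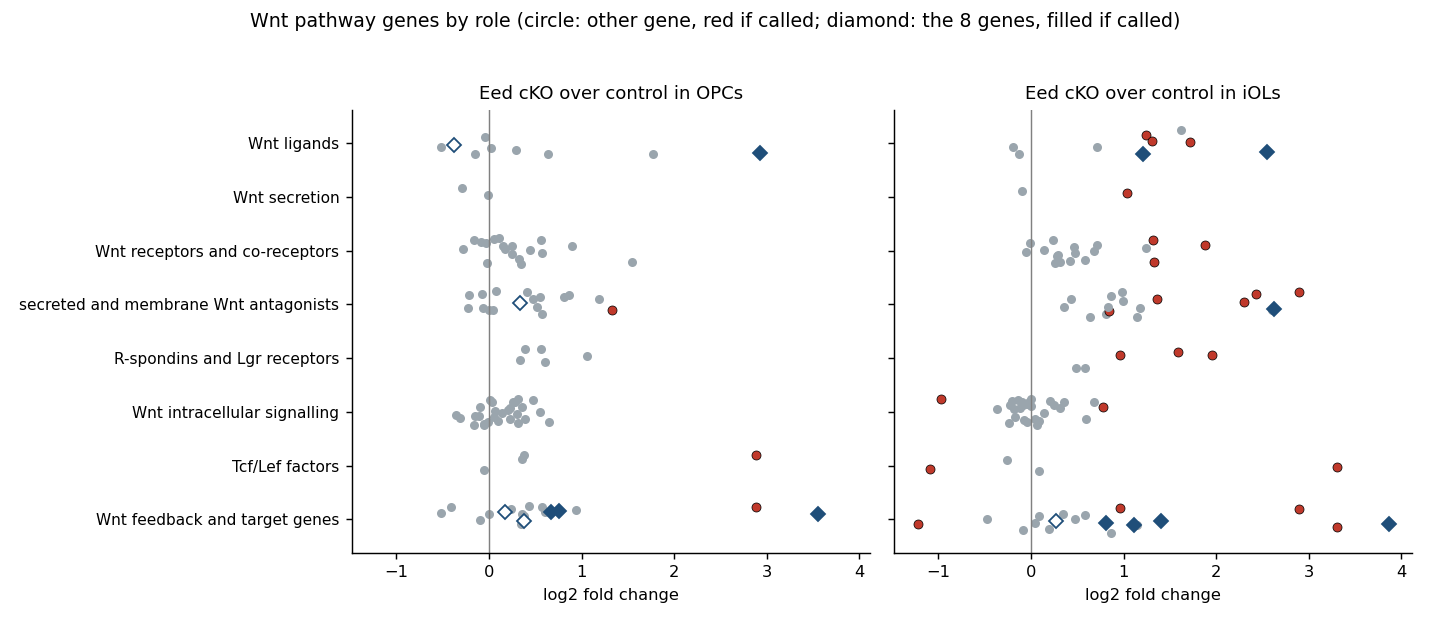
Log2 fold change of Eed cKO over control for measured Wnt pathway genes by role, in OPCs (left) and iOLs (right); each point is a gene, diamonds are the 8 genes, and a gene in 2 roles is drawn in both. Called genes (red circles, filled diamonds) are few in OPCs and lie mostly to the right in iOLs, with 7 higher among feedback and target genes, 6 among antagonists and 5 among ligands. These counts include the filled diamonds. They are a description, since Wnt2b, Sp8, Lef1 and Notum among them needed cKO libraries to be in the table.

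For the difference between the stages 3 of the 89 further genes were called larger in iOLs and 2 smaller, against 0.945% and 0.886% of all genes. Adgra2 (log2 1.53 ± 0.26), Igfbp4 (2.01 ± 0.33) and Wls (1.04 ± 0.22) were larger, and Cxxc4 (−1.28 ± 0.25) and Prickle1 (−1.57 ± 0.28) smaller. None of the 89 passed without OPC Eed cKO replicate 1 or 2 or without any one of the 4 iOL libraries, where edgeR called at most 32 genes in the whole table. DESeq2 called 7 larger and 5 smaller.

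Partners of cyclin D1 were read beside it. Of 15 D-type cyclins, partners and inhibitors, Ccnd1 included, 4 rose in cKO OPCs (Cdkn2a, Cdkn2b, Cdkn1a and Cdk6), against 2.94% of all genes. In cKO iOLs 6 rose (Ccnd1, Ccnd2, Cdk6, Cdkn2a, Cdkn2b and Cdkn2c), against 7.08% of all genes called higher. Cdkn2a had 9, 2, 1 and 1 counts in the control libraries and Cdkn2b 15, 8, 14 and 16. Both could be in the table only through the cKO libraries, where they are high, so these counts are a description. For the difference between stages Ccnd1 was called larger in iOLs and Cdkn1a smaller, 1 gene each way, against 0.945% and 0.886% of all genes. The log2 difference of Cdkn1a ran from −2.32 to −1.49 under the alternatives. Its call ended without any single iOL library and without OPC Eed cKO replicate 1 or 2. Ccnd2, the neighbouring D-type cyclin, was at 229 and 186 CPM in control iOLs and at 448 and 436 CPM in cKO iOLs (log2 1.09 ± 0.27, edgeR adjusted p = 0.030). That call ended without any single iOL library (adjusted p up to 0.199). Cdk6, the kinase that D-type cyclins activate, rose in OPCs (0.84 ± 0.14, adjusted p = 0.013) and in iOLs (0.60 ± 0.15, 0.032). The OPC call of Cdk6 was lost without the first control OPC library, without the first or second cKO OPC library and with only the OPC libraries (adjusted p up to 0.0712) and the iOL call without any iOL library or OPC Eed cKO replicate 1 (up to 0.183).

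Genes with the most similar pattern over the 9 libraries were found by Pearson correlation of log2 CPM, as a description, since the libraries share their groups and batches. Wnt2b was nearest to Pou4f1 (r = 0.987), Igf2os (0.972) and Il17ra (0.972), and Sp8 to She (0.993), Zfhx4 (0.989) and Rab11fip4 (0.983). Pou4f1, Igf2os and She averaged 0.222, 0.0819 and 0.456 CPM in control OPCs. Like Wnt2b and Sp8, these genes needed cKO libraries to be in the table, which favours similar patterns. Igf2os is an antisense gene, and a library that does not mark strand mixes its reads with those of the opposite gene. Wnt7b was nearest to Tnfaip8 (0.993), Sfrp2 to Col26a1 (0.997) and Ccnd1 to Eln (0.997). Nkd1 was nearest to Npr1 (0.998) and Rnf43 to Hapln3 (0.998). Axin2 had lower values, 0.95 with Notch1, 0.938 with Atxn7l2 and 0.931 with Phf21a.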

How the data were processed

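RNA sequencing was read in 9 libraries. The authors deposited one table of raw counts, whole reads per gene. Per the submitters' processing notes, reads were trimmed with cutadapt 1.14, aligned to mm10 with STAR 2.6.0 and counted with featureCounts of Subread 1.6.2. Per the labels' protocols, a stranded polyA kit was used above 100 ng of RNA and an amplifying kit below it. The kit behind each single library was not named. The 4 chromatin immunoprecipitation samples are not analysed here.

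From the table, 1 row that repeats a header was dropped. Counts were fitted in R 4.3.3 with edgeR 4.0.16 and limma 3.58.1, with 4 group means, TMM factors, a filter at a minimum count of 10, which removed 0 genes, and the quasi-likelihood test. A gene is called when its p-value, adjusted by Benjamini-Hochberg across the 13549 genes, is under 0.05. CPM uses TMM-scaled library sizes, and log2 CPM a prior count of 2. The standard error is |log2 fold change| divided by the root of F, with 5 residual degrees of freedom before the shared spread is added. Exact binomial intervals of ratios pool a group's libraries and cover counting error alone. Nothing in the labels says that replicates came from separate animals or cultures, so the spread behind the p-values, taken between these samples, may be technical. The test was checked on simulated data, where the share of false calls lay somewhat above its nominal level in every comparison and small changes were missed most often in the difference between stages.

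The 8 genes and all lists were chosen with earlier results of these data known. Named are the 8 genes, other listed Wnt and cyclin genes called in the Eed comparisons or in their difference between stages, and for each of the 8 the up to 3 genes of at least 1 CPM most correlated with it. The marker and proliferation genes named were chosen after their values were seen. Antisense and overlapping genes are uncertain. The alternatives tried were DESeq2 1.42.0, leaving out each library, fits to only the compared groups, a term for postnatal day, a block for the replicate number, RLE size factors, and either no filter or one at 1 CPM in 4 or more libraries. In a group of 2, leaving out 1 leaves a lone library, assumed to vary like the other groups.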

Additional observations from a re-analysis of the deposited data

Results flagged for a closer look

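The Eed effect differed between the stages, by the test of the difference itself, for 3 of the 8 genes. It was larger in iOLs than in OPCs by 2.29 on the log2 scale for Sfrp2, by 1.59 for Wnt7b and by 1.03 for Ccnd1 (edgeR adjusted p = 0.011, 0.011 and 0.033). In Wnt7b the 2 effects had opposite signs, −0.38 and 1.21. Summed oligodendrocyte markers were lower in cKO iOLs (1611 to 2348 CPM) than in control iOLs (6276 and 6297 CPM), and their part in these differences was not tested.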

How the results depend on the processing

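Of 631 log2 fold changes of the 8 genes under the alternatives, 585 kept their direction and their side of the threshold, 28 lost a call, 6 gained one and 12 turned. Those that turned were all uncalled. For Axin2 they were −0.10 in OPCs without OPC control replicate 1, −0.13 (day as a term) and −0.24 (without OPC control replicate 1) for control differentiation, −0.12 (day) and −0.0046 (without iOL Eed cKO replicate 1) for cKO differentiation, and −0.25, −0.0029 and −0.036 for the difference between stages without the second control OPC, second cKO OPC or first cKO iOL library. For the same difference Wnt2b was at 0.028 and Sp8 at −0.69 without OPC control replicate 2, and Nkd1 at −0.043 and −0.024 without OPC control replicate 1 or iOL control replicate 2. Leaving out 1 library each, the log2 value of Axin2 ran from −0.10 to 0.52 in OPCs, −0.24 to 0.37 and −0.0046 to 0.25 over differentiation in controls and cKO cultures, and −0.25 to 0.37 for the difference between stages. That difference ran from −0.91 to 0.028 for Wnt2b, −0.043 to 0.14 for Nkd1 and −0.69 to 0.86 for Sp8. Calls among the 8 genes, leaving out 1 library each, ran from 3 to 5 in OPCs, 6 to 7 in iOLs, 5 to 6 and 5 to 7 over differentiation in controls and cKO cultures, and 0 to 3 for the difference between stages.

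Calls among the 89 further Wnt genes ran in that order from 2 to 28, 4 to 31, 28 to 54, 29 to 50 and 0 to 14 without 1 library, and over all genes from 164 to 3935, 349 to 2236, 4057 to 7236, 3080 to 6883 and 2 to 2156. In OPCs the 2 calls of the 89 became 17 with postnatal day as a term and 8 with DESeq2, and the 440 over all genes became 1382, 1006 and, with only the OPC libraries, 190. In iOLs the 20 calls became 34 (day) and 43 (only iOL libraries), and the 1434 became 2680 and 3699. For control differentiation 50 became 32 with only the control libraries. For the difference between stages 5 became 13 (day) and 12 (DESeq2), and 248 became 1202 and 823. Beyond fewer libraries or groups in a fit, the cause was not tested. Only the control groups left Sp8 out of the control differentiation test, and the difference between stages needs all groups.

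With the replicate number as a block, calls of the 89 were 14 in OPCs and 12 for the difference between stages, and calls over all genes 1941 and 1049. The block let the OPC decrease of Wnt7b pass (−0.50, adjusted p = 0.0349) and ended the control differentiation call of Wnt2b (0.0535). Same-numbered libraries share only a number. Their deviations from the group means correlated at 0.313 and −0.352 in OPCs and 0.239 in iOLs. Depth limits Wnt2b and Sp8, with 11 and 13 counts in all control OPCs.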

Other observations

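Of 20 cell proliferation genes, such as Mki67 and Mcm5, 18 fell over differentiation in control cultures and 2 did not pass, against 25.3% of all genes called lower (median log2 fold change −1.38, beside −0.06 over all genes). In cKO cultures 15 fell, 1 rose and 4 did not pass, against 21.8% lower and 18.5% higher (median −0.83, beside −0.00). In cKO iOLs Mcm5 (log2 0.53 ± 0.14) and Rrm2 (0.57 ± 0.15), genes of DNA replication, were higher than in control iOLs and 18 did not pass, against 7.08% of all genes called higher, with 13 higher at an unadjusted p under 0.05. Ccnd1 thus shared the direction of this list over differentiation.

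Rspo1 and Rspo3 were at 1.09 and 0.963 CPM on average in control OPCs, 2.30 and 1.43 CPM in cKO OPCs, 0.367 and 0.365 CPM in control iOLs and 1.43 and 1.11 CPM in cKO iOLs, so the calls of both in iOLs rest on low counts. Both ended without any single iOL library and without the first or second cKO OPC library (edgeR adjusted p up to 0.235 and 0.209).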
